A study of Mus musculus with 3 samples.

Results

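The 9 genes described here encode the core of Sonic hedgehog signalling: the ligand gene Shh, the co-receptor genes Cdon, Boc and Gas1, the receptor gene Ptch1, the signal transducer gene Smo, and the transcription factor genes Gli1, Gli2 and Gli3. They were chosen by name, not by their values, and all 9 were among the 16977 genes of the deposited table and passed the minimum mean of 10 normalised reads. Gene expression was measured by sequencing total RNA, depleted of ribosomal RNA, from neural stem cells of C57BL/6J mouse embryos (E12.5) grown with EGF and FGF. There were 3 libraries: 1 from cells infected with a lentivirus carrying a control short hairpin RNA (shControl) and 2 biological replicates from cells infected with a hairpin against PHF2 (shPHF2). The cells of all 3 libraries were therefore infected and kept in the same growth factors. PHF2 belongs to the JmjC histone demethylases, carries a PHD finger and is linked to methylation of histone H3 at lysine 9. The labels used here do not say how many hairpin sequences were used or whether cells were selected, and each group is a bulk culture.

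In this pathway the secreted ligand binds PTCH1, a membrane protein that otherwise holds SMO inactive, and CDON, BOC and GAS1 are surface proteins that help the ligand bind. Active SMO in the primary cilium changes the GLI proteins, of which GLI2 acts mainly as an activator and GLI3 mainly as a repressor. Gli1 and Ptch1 are themselves transcribed in response to GLI activity and are widely used as readouts of it. In the embryonic neural tube the ligand patterns progenitors along the dorsal to ventral axis and supports their division.

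The libraries held 26302177 to 37171026 reads in genes. Phf2 itself stood at 2593 normalised reads (reads divided by the size factor of the library) in shControl, against 985 and 714 in the shPHF2 replicates 1 and 2 (limma, adjusted p = 0.0085). Of the 12 marker genes listed for neural stem cells and radial glia, all 12 were tested, with Nes at 98053 to 118162 and Fabp7 at 41962 to 66987 normalised reads. Not all were high, with Hes5 at 14.5 to 39.9. Sox2 rose from 5893 to 10114 and 8819 (limma, adjusted p = 0.048), and the other 11 did not pass by limma. The authors' deposited table also called Vim higher (77235, 116785 and 132042, adjusted p = 0.015 by DESeq2). It called Prom1 higher as well (111, 193 and 499, adjusted p = 0.032 by DESeq2). The summed markers of fibroblasts and meninges reached 7.97 to 16.9 normalised reads, those of choroid plexus epithelium 9.97 to 37.4, and those of microglia and macrophages, with 2 of 7 in the table, 11.0 to 30.0. Summed neuron markers stood at 61968 in shControl and at 41808 and 40774 in shPHF2, nearly all of it Map2. Map2 did not pass by limma, while the authors' deposited table called it lower (DESeq2, adjusted p = 0.020). The list's other genes did not all go that way: over the 7 tested neuron markers the median log2 fold change was 0.33, and Gad1, for an enzyme of GABA synthesis, rose from 138 to 720 and 500 normalised reads (limma, adjusted p = 0.0085). Summed astrocyte markers stood at 9103 in shControl and at 7418 and 6723 in shPHF2, a sum made up mostly of Aldoc and Gja1, both lower in shPHF2 without passing. The other 4 of the 6 astrocyte markers (S100b, Gfap, Aqp4 and Aldh1l1) lay above the control in both shPHF2 libraries, with a median log2 fold change of 1.48 over the 6, and S100b rose from 331 to 1094 and 850 (limma, adjusted p = 0.011). Summed oligodendrocyte lineage markers stood at 2794, 2376 and 2087 in shControl, replicate 1 and replicate 2, most of it Cspg4 (2114, 2008 and 1830). The 4 of these 6 markers that were tested all lay below the control in both shPHF2 libraries, as did 41.8% of all genes tested. The median log2 fold change of these 4 was -1.04, and none passed. Of the markers too low to test, Mbp (2.99, 3.33 and 16.9) lay above the control in both, and Mog (6.98, 2.50 and 0) lay below it. Pdgfra had 539, 303 and 159 normalised reads. The 7 endothelium and pericyte markers summed to 215, 198 and 123, most of it Kdr. Gad2 and Ttr were at 0 reads in shControl and in shPHF2 replicate 1, and Tie1, Aif1, Aqp4 and Col1a2 were at 0 in shControl. The part of other cell types in the results below was not tested, and in bulk RNA a smaller share of cells of a type cannot be told apart from less RNA per cell.

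The ligand gene rose in shPHF2, 1 co-receptor gene and 1 GLI gene fell, and the readout genes Gli1 and Ptch1 did not pass the test. Shh rose 2.70-fold, Cdon fell to 51.6% of the control and Gli2 to 48.1%, whereas Gli1 stood at 97.6% and Ptch1 at 102%. These 3 of the 9 genes passed the test, 1 higher and 2 lower (limma with a mean-variance trend on log2 of the normalised reads plus 1, Benjamini-Hochberg adjusted p under 0.05 over all genes tested). Over the 14148 genes tested 14.3% passed, 7.22% higher and 7.11% lower. The median log2 fold change was -0.27 over the 9 genes and -0.01 over all genes tested. The authors' deposited table called 3 of the 9 and 16.0% of its genes with an adjusted p, edgeR 3 and 15.2%, and DESeq2 3 and 15.5%, and in each case the 3 were those that limma called. The 3 calls were lost, with 0 of the 9 genes passing, when limma was run without the trend, after quantile normalization or on every gene with a read, where 2, 3 and 4 of the 9 had an unadjusted p under 0.05.

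**Figure D1:**
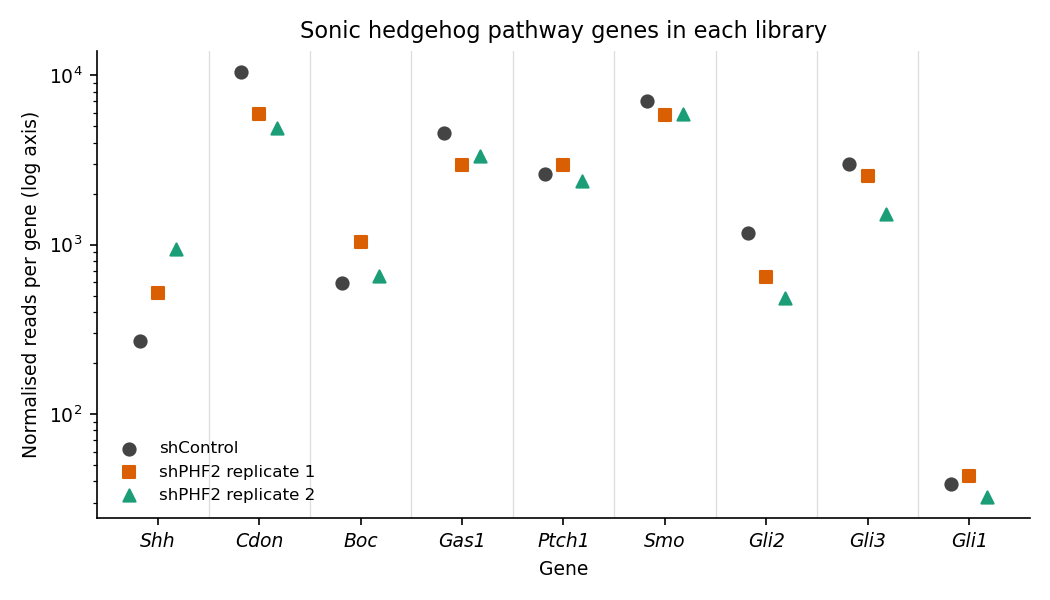
Normalised reads of the 9 genes (log axis) in each of the 3 libraries, 1 point per library, ordered by role from ligand to readout. Shh and Boc are higher and Cdon, Gas1, Smo, Gli2 and Gli3 are lower in both shPHF2 libraries than in shControl. Gli1 lies between 32.6 and 43.4 in all 3.

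The ligand gene Shh occupies positions 28456815 to 28467256 of chromosome 5, minus strand, in 3 exon blocks (GENCODE M21, GRCm38). Its normalised reads numbered 271 in the control, 520 in replicate 1 and 946 in replicate 2 of shPHF2. Both shPHF2 values lay above the control, and replicate 2 lay well above replicate 1. The shPHF2 mean was 733 ± 301 (SD, n = 2), and limma gave a log2 fold change of 1.37 ± 0.36 (standard error; adjusted p = 0.042). By itself replicate 1 gave a log2 fold change of 0.94 and replicate 2 one of 1.80. In the settings that lost the call the adjusted p was 0.18 to 0.22 (limma). The reads themselves were 272, 624 and 785, so shPHF2 held 2.56 times the reads of the control at equal depth, and counting error alone allows 2.25 to 2.93 (exact 95% interval). The exons of Shh share 446 bases with the antisense gene 9530036O11Rik and 361 bases with the long noncoding RNA gene Gm26894, both on the opposite strand. The sources used here do not say whether counting used the strand, so reads in these stretches cannot be assigned with certainty. 9530036O11Rik was counted at 2.99, 10.0 and 6.03 normalised reads in the control and the 2 shPHF2 libraries, and Gm26894 was not analysed here.

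Among the co-receptor genes, Cdon fell and the other two did not pass the test. CDON is a cell surface protein of the immunoglobulin superfamily, and its gene spans 35421128 to 35507652 on the plus strand of chromosome 9. Cdon stood at 10447 normalised reads in the control, against 5911 in replicate 1 and 4861 in replicate 2. Both shPHF2 values lay far below the control and close to each other. The mean was 5386 ± 742 (SD, n = 2), a change of -0.96 on the log2 scale (SE 0.19, limma; adjusted p = 0.019), with -0.82 in replicate 1 and -1.10 in replicate 2. In the settings that lost the call the adjusted p was 0.11 to 0.17 (limma).

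BOC is the close relative of CDON, and its gene is on the minus strand of chromosome 16 (44485049 to 44558897). Boc had 593 normalised reads in the control, and 1038 and 650 in replicates 1 and 2 of shPHF2. Both shPHF2 values were above the control, but replicate 2 by little. The log2 fold change of Boc was 0.47 with a 95% interval of -0.23 to 1.16 (limma, adjusted p = 0.33). Cdon reads outnumbered Boc reads 17.6 to 1 in shControl, 5.69 to 1 in replicate 1 and 7.48 to 1 in replicate 2. This ratio was lower in both shPHF2 libraries. The difference was not tested.

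GAS1 is anchored to the membrane by a lipid and is unrelated in sequence to CDON and BOC. Its gene is a single exon on chromosome 13 (60174405 to 60177365, minus strand). Gas1 stood at 4572 normalised reads in the control, against 2965 in replicate 1 and 3357 in replicate 2. Both shPHF2 values lay below the control and near each other, with a mean of 3161 ± 277 (SD, n = 2). The log2 fold change of -0.54 had an unadjusted 95% interval of -0.95 to -0.12 and did not pass over all genes (limma, adjusted p = 0.084). Of its exon, 589 bases are shared with the long noncoding RNA gene Gm48488 on the opposite strand, which was not analysed here.

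The receptor and transducer genes did not pass the test. Ptch1, on chromosome 13 from 63508328 to 63573598, was counted at 2608 normalised reads in the control, 2936 in replicate 1 and 2390 in replicate 2. The control lay between the shPHF2 values. The shPHF2 mean was 2663 ± 387 (SD, n = 2), and the log2 fold change was 0.02 with a 95% interval of -0.43 to 0.47 (limma, adjusted p = 0.95). Smo, on chromosome 6 from 29735503 to 29761365, had 7042, 5798 and 5908 normalised reads in shControl, replicate 1 and replicate 2. Both shPHF2 values of Smo lay below the control and were nearly equal. The log2 fold change of Smo was -0.27 with a 95% interval of -0.67 to 0.13 (limma, adjusted p = 0.34).

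Of the 3 GLI genes, Gli2 fell, and Gli1 and Gli3 did not pass the test. Gli2, on chromosome 1 from 118834132 to 119053619, was counted at 1171 normalised reads in the control, 643 in replicate 1 and 483 in replicate 2. Both shPHF2 values were about as far below the control as those of Cdon. The mean was 563 ± 113 (SD, n = 2) and the log2 fold change was -1.07 (SE 0.25; limma, adjusted p = 0.031), with -0.86 in replicate 1 and -1.27 in replicate 2. In the settings that lost the call the adjusted p was 0.12 to 0.18 (limma).

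Gli3, on chromosome 13 from 15463235 to 15730026, had 3003, 2537 and 1516 normalised reads in shControl, replicate 1 and replicate 2. Both shPHF2 values lay below the control, and the distance came mostly from replicate 2. The log2 fold change of Gli3 was -0.61 with a 95% interval of -1.28 to 0.05 (limma, adjusted p = 0.19), and the replicates gave -0.24 and -0.99.

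Gli1, on chromosome 10 from 127329882 to 127341974, was counted with 39, 52 and 27 reads, which are 38.9, 43.4 and 32.6 normalised reads. The control lay between the shPHF2 values, and all 3 libraries were low. The log2 fold change of Gli1 was -0.05 with a 95% interval of -1.48 to 1.38 (limma, adjusted p = 0.97). At equal depth the reads of shPHF2 and the control stood at a ratio of 1.00, and counting error alone allows 0.67 to 1.51 (exact 95% interval). Counting error alone thus hides a change of Gli1 within that interval. The limma interval, which also takes in the spread between the shPHF2 libraries, is wider, so larger changes could also have been missed. The log2 ratio of Gli1 to Gli3 was -6.24 in shControl, -5.84 in replicate 1 and -5.50 in replicate 2, and that of Gli1 to Ptch1 was -6.03, -6.05 and -6.15. The log2 ratio of Ptch1 to Smo was -1.43, -0.98 and -1.31. Exons of Gli1 share 265 bases with the antisense gene Gm47200 and 62 bases with Arhgap9, and those of Gli3 share 188 bases with Gm6556, all on the opposite strand and not analysed here.

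**Figure D2:**
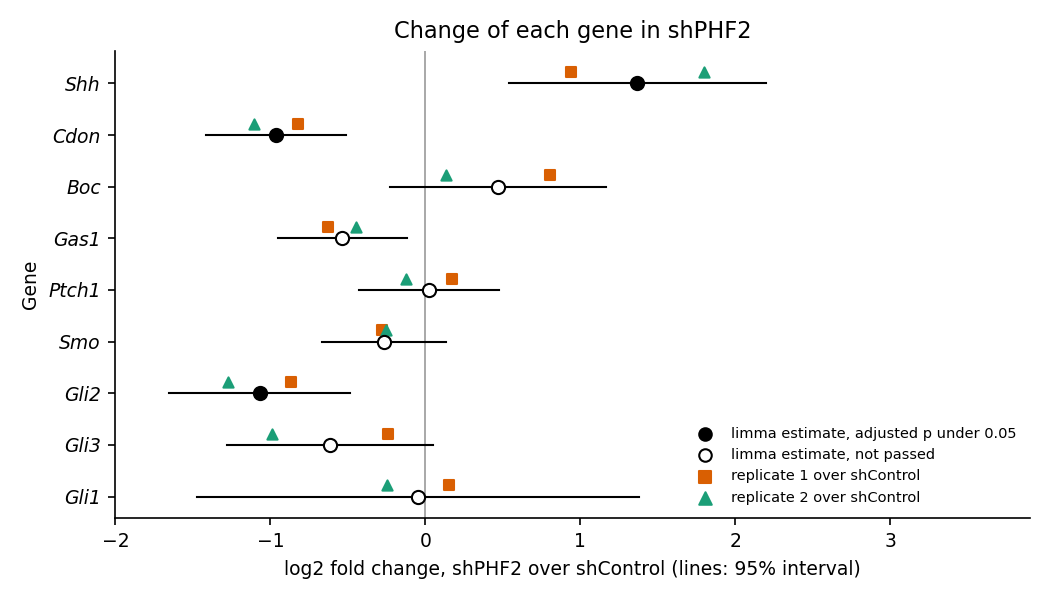
Log2 fold change of each gene, shPHF2 over shControl: circles with lines are the limma estimate and its unadjusted 95% interval, squares and triangles are replicate 1 and replicate 2 against the single control. Shh (1.37), Cdon (-0.96) and Gli2 (-1.07) are filled because they passed the test, and the interval of Gli1, from -1.48 to 1.38, is the widest of the 9.

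Set side by side, the ligand and co-receptor genes and the GLI readouts gave log2 fold changes of 1.37 for Shh, -0.96 for Cdon, -0.54 for Gas1 and 0.47 for Boc, against -0.05 for Gli1 and 0.02 for Ptch1. No test was made between genes, which are not replicates of a condition. Of the 9 genes, 7 had both shPHF2 libraries on the same side of the control, 2 above it (Shh and Boc) and 5 below it (Cdon, Gas1, Smo, Gli2 and Gli3). Over all genes tested this held for 83.2%, with 41.4% above and 41.8% below. The share among the 9 genes is thus close to that of genes in general. Gli1 and Ptch1, the readout genes, were the 2 whose shPHF2 libraries lay on either side of the control.

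**Figure D3:**
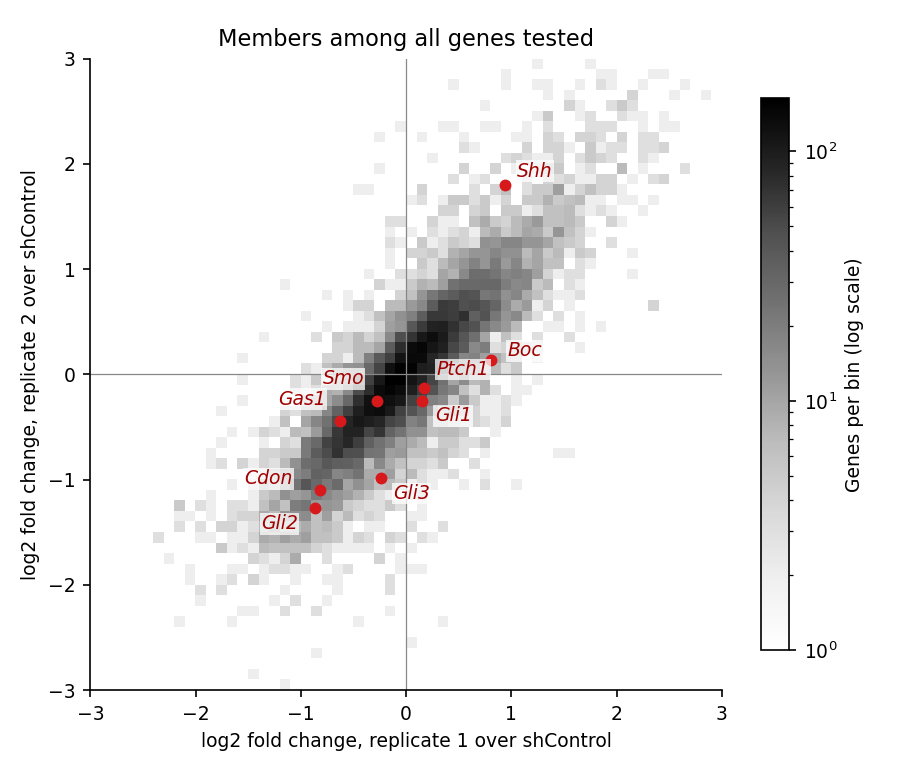
Log2 fold change of replicate 1 (x axis) and replicate 2 (y axis) against the same shControl library, so the axes share the control; grey squares count genes tested in bins of 0.1 (log colour scale), with 13896 of 14148 genes inside the axes and the 9 genes in red. Shh lies at 0.94 and 1.80, Cdon at -0.82 and -1.10 and Gli2 at -0.86 and -1.27, while Gli1 and Ptch1 lie near the centre.

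The pattern of Gli1 was compared with that of the 11483 other tested genes with a mean of at least 100, by the distance between the pairs of log2 fold changes of the 2 replicates. The nearest genes were Sox6, Ubr2 and Fam122b, at distances of 0.0016, 0.0060 and 0.0079. Sox6, a SOX family transcription factor gene, had 5882, 6536 and 4947 normalised reads in shControl, replicate 1 and replicate 2. The likeness rests on 3 libraries and on the few reads of Gli1.

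Levels were compared between genes as normalised reads per kilobase of annotated exon, since a longer gene collects more reads. In shControl the order was Gas1 (1544), Cdon (1354), Smo (1253), Gli3 (313), Ptch1 (184), Gli2 (171), Boc (133), Shh (95.2) and Gli1 (7.78). The 3 highest were a lipid-anchored co-receptor, an immunoglobulin-type co-receptor and the transducer, and the control had no replicate to set a spread. In shPHF2 the levels per kilobase were 1067 ± 93.6 for Gas1, 1041 ± 13.8 for Smo and 698 ± 96.2 for Cdon (SD, n = 2). Gas1 and Smo did not differ beyond their spread, and Cdon lay below both. Next came Shh at 258 ± 106, Gli3 at 211 ± 75.3, Boc at 190 ± 61.7 and Ptch1 at 188 ± 27.3 per kilobase (SD, n = 2), which overlapped within their spread. Gli2 stood at 82.0 ± 16.4 and Gli1 at 7.60 ± 1.53 per kilobase (SD, n = 2), each below the gene before it by more than the spread. In this order Shh had rank 8 in shControl, 7 in replicate 1 and 4 in replicate 2, and Gli1 was last in all 3 libraries. The lengths take in all annotated exons, so a gene with unused exons would have too low a level per kilobase, and exon use was not measured here. Ptch1 has 14185 bases by this count.

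**Figure D4:**
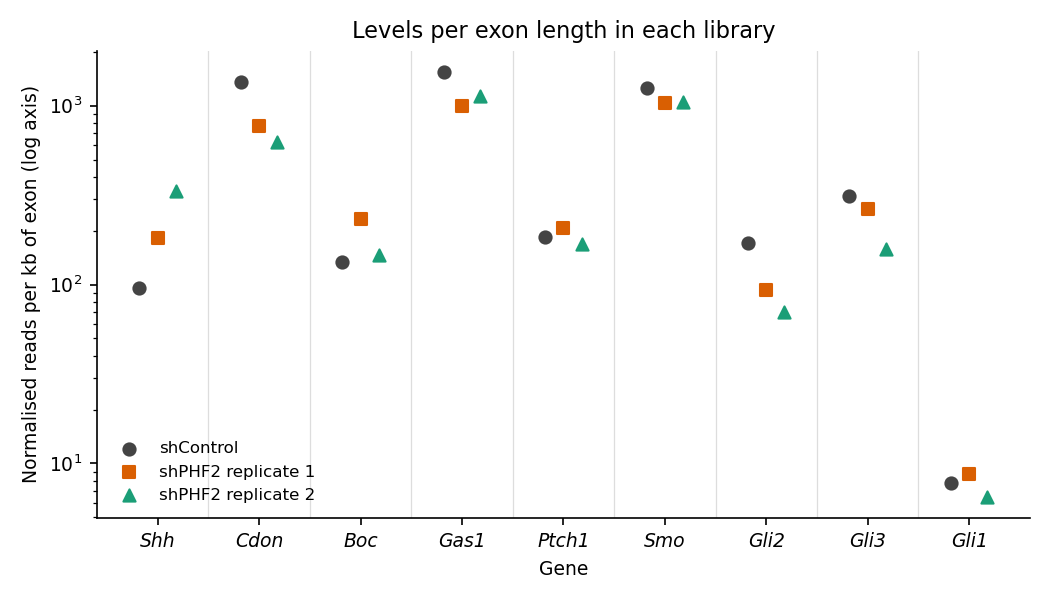
Normalised reads per kilobase of annotated exon (log axis) for the 9 genes in each library, 1 point per library. Gas1, Smo and Cdon form the upper group at 630 to 1544, and Gli1 lies lowest at 6.52 to 8.68.

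Promoter sequences from RefSeq (GRCm38.p6) matched 6 of the 9 genes, namely Gli2, Smo, Cdon, Gli3, Gas1 and Ptch1. Those of the 2 genes that fell are shown for the 250 bases before the annotated start, 5′ to 3′ on the strand of the gene, with CpG dinucleotides in capitals. The Gli2 window is chr1:119053620-119053869 (minus strand), and the Cdon window is chr9:35451826-35452075 (plus strand), whose start lies 30948 bases inside the outermost start of Cdon in GENCODE M21.

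Gli2: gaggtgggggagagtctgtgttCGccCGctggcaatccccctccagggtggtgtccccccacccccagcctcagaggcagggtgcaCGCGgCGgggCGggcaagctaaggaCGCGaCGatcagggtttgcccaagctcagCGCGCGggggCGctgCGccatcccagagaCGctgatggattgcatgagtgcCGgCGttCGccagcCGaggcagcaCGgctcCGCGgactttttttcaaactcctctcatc

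Cdon: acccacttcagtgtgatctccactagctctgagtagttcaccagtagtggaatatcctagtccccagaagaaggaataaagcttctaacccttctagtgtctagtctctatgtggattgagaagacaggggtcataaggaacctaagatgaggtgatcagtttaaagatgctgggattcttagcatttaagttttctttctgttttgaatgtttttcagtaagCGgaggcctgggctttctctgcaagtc

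The windows differ in CpG content, but the Cdon window lies far inside the gene, so they do not compare the outermost promoters of both genes. The Gli2 window holds 22 CpG dinucleotides and is 67.2% G and C, and the Cdon window holds 1 and is 42.8% G and C. The same 250 bases of Ptch1, which did not pass the test, hold 41 CpG dinucleotides, and their start lies 7863 bases inside the outermost start of Ptch1 in GENCODE M21. The GLI binding motif GACCACCCA, searched on both strands (TGGGTGGTC on the other) in the 300 bases from 250 before to 50 after the start, occurred in 0 of the 6 promoters. It occurred in 0.253% of the 32851 RefSeq promoters, and with 1 mismatch allowed in 6.74% of them and in 0 of the 6.

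Beyond the 9 genes, 94 other genes of the pathway were listed by role in 7 lists, of which 86 were in the table and 81 were tested. Of these, 7 rose and 2 fell, beside the 7.22% and 7.11% of all genes given above (limma). Their median log2 fold change was 0.13, against -0.01 for all genes tested. All 9 calls were lost when limma ran without the trend, after quantile normalization or on every gene with a read, where 12, 16 and 14 of the genes had an unadjusted p under 0.05 (limma), while edgeR called 9 and DESeq2 11.

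Of the genes for other ligands and for ligand release, 6 of 8 were tested, and 1 passed. Disp2, a relative of the dispatched transporter that releases the lipid-bearing ligand, stood at 213 normalised reads in the control, 895 in replicate 1 and 1010 in replicate 2. Both shPHF2 values lay far above the control, so Disp2 rose by 2.15 on the log2 scale (SE 0.24; limma, adjusted p = 0.0049). Disp1, the family member known to release Sonic hedgehog, had 884, 1161 and 1241 normalised reads and did not pass (limma, adjusted p = 0.18). Scube3, for a secreted protein that takes up the released ligand, had 35.9, 30.0 and 32.6. The other ligand genes were low, with Dhh at 20.8 to 31.3 and Ihh at 2.99 to 4.82 normalised reads. Shh was thus the ligand gene with the most reads in every library.

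Of 3 genes for other receptors and surface modulators, 1 passed. Gpc3, a glypican that binds hedgehog ligands and limits signalling, rose from 119 to 253 in replicate 1 and 389 in replicate 2, a change of 1.40 on the log2 scale (SE 0.37, limma; adjusted p = 0.043). Hhip, a ligand-binding decoy that is itself a GLI target, had 543, 1612 and 715 normalised reads in shControl, replicate 1 and replicate 2. Both shPHF2 values were above the control but far apart, and the gene did not pass (limma, adjusted p = 0.15). Lrp2, the endocytic receptor megalin, had 2212, 1111 and 360 (limma, adjusted p = 0.062).

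Among 20 intracellular regulators, 1 passed, and the median log2 fold change was 0.16. Stk36, the mammalian relative of the fly kinase Fused, rose from 163 to 330 and 432, a change of 1.20 on the log2 scale (SE 0.32, limma; adjusted p = 0.042). The most abundant genes that did not pass were Csnk1a1, for casein kinase 1 alpha, at 10480, 10613 and 10266, and Prkar1a, for a regulatory subunit of protein kinase A, at 6937, 9268 and 11874 normalised reads in shControl, replicate 1 and replicate 2. Sufu, the main GLI inhibitor, had 423, 505 and 510 normalised reads and did not pass (limma, adjusted p = 0.51). It is named after its values were seen.

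Of 35 genes of the primary cilium, where SMO and the GLI proteins meet, 2 passed, with a median log2 fold change of 0.13. Tulp3, which brings receptors such as GPR161 into the cilium and restrains the pathway, rose from 1209 to 3361 and 3153, a change of 1.43 on the log2 scale (SE 0.18, limma; adjusted p = 0.0064). Kif3b, a subunit of the kinesin motor that moves cargo along the cilium, rose from 2831 to 4386 and 4577, a log2 fold change of 0.66 (limma, adjusted p = 0.040). Its partner Kif3a had 2024, 2624 and 2728, and the cilium assembly kinase gene Ttbk2 had 2438, 2760 and 2353, and neither passed.

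Of 12 genes described as GLI targets in various tissues, Hhip among them, 10 were tested. Of these, 1 rose and 2 fell, with a median log2 fold change of -0.40. An unadjusted p under 0.05 (limma) was found for 7 of the 10, in both directions, and for 4414 of the 14148 genes tested. Bcl2, an inhibitor of cell death, fell from 2370 to 1108 in replicate 1 and 1030 in replicate 2, a change of -1.15 on the log2 scale (SE 0.19, limma; adjusted p = 0.012). Bmi1, a polycomb protein gene, fell from 10670 to 7070 and 6001, a log2 fold change of -0.71 (limma, adjusted p = 0.045). Igf2, a growth factor gene, rose from 68.8 to 234 and 307, a change of 1.95 on the log2 scale (SE 0.37, limma; adjusted p = 0.016). The cyclin genes Ccnd1 and Ccnd2 did not pass. Ccnd1 had 56737 normalised reads in shControl, 26367 in replicate 1 and 42129 in replicate 2. Ccnd2 had 47583, 69149 and 100236, and DESeq2 called it higher (adjusted p = 0.011).

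Most transcription factor genes that mark dorsal and ventral progenitors did not pass. Of 9 ventral factors 4 were tested, and 0 passed by limma and by edgeR, with 1 at an unadjusted p under 0.05 by limma, while DESeq2 called 1. Olig1 had 37506, 38217 and 52987 and Olig2 29320, 24241 and 29091 normalised reads in shControl, replicate 1 and replicate 2, the highest of these factors in every library. Of 8 dorsal and intermediate factors 4 were tested, and 1 passed. Irx3, an Iroquois factor gene, rose from 65.8 to 272 and 184, a change of 1.75 on the log2 scale (SE 0.40, limma; adjusted p = 0.029). Pax6 had 1392, 1046 and 691 and Dbx2 had 40.9, 53.4 and 150, and neither passed.

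**Figure D5:**
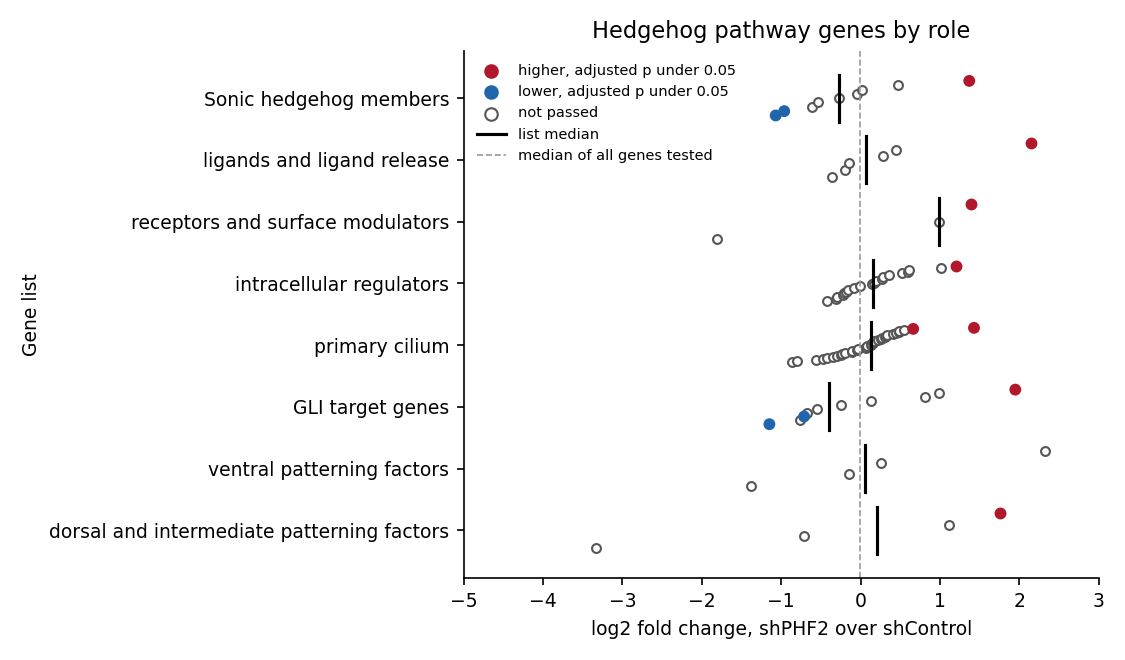
Log2 fold change (shPHF2 over shControl) of each tested gene by list, 1 point per gene, red or blue where limma's adjusted p was under 0.05; black bars are list medians and the dashed line is the median of all genes tested. List medians lie between -0.40 and 0.98, the latter over 3 genes, and most genes of each list did not pass.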

How the data were processed

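Members were given by name and not picked on their values. Earlier results of these data were nonetheless known when members and gene lists were chosen. The submitters' processing notes name HISAT2, HTSeq, DESeq2 and the build mm10, without versions, annotation or strand setting. The deposited signal is a gene's read count over the DESeq2 size factor of its library, as read from the header's DESeq2 columns and the stepwise values. The authors' log2 fold changes, their Wald score and standard error, and their p-values were also deposited. All values (100%) were whole multiples, within 0.001, of 1 step per library, so whole reads were recovered, with size factors of 1.00, 1.20 and 0.829. The 4 rows that name no gene hold 61.4% to 61.5% of reads and were left out, and 0 library columns were unused. Within these rows, reads in no annotated feature made up 42.7%, 44.0% and 38.7% of all reads in shControl, replicate 1 and replicate 2. Reads of too low alignment quality made up 17.0%, 15.9% and 20.5%. The effect of this difference was not tested.

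The test was limma 3.58.1 (lmFit, eBayes with trend; R 4.3.3), two-sided and with Benjamini-Hochberg adjustment, on log2(value + 1) of 14148 genes whose mean reached 10. Such fold changes understate those of low genes. The 1 residual degree of freedom comes from shPHF2, is moderated by 6.94 prior degrees of freedom, and the lone control is assumed to vary alike. Nothing in the labels says that the biological replicates were separate infections, so p-values measure the spread between these libraries. edgeR 4.0.16 and DESeq2 1.42.0 on recovered reads, other pseudocounts, filters and scalings were alternatives. In 10 simulated data sets of the 14148 genes with 200 changed, limma recovered 42.5% of 2-fold and 80.3% of 4-fold changes, and 12.0% of its calls were false. In the data far more genes (2027) were called, so these rates need not hold there.

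Named genes were the 9 members; in each other list the genes that passed (up to 6 by size) and the 2 of highest mean among the rest; and the 3 genes nearest to Gli1. The lists do not cover every gene of the pathway; 1 further gene is not reported here.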

Additional observations from a re-analysis of the deposited data

How the results depend on the processing

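The 3 calls among the 9 genes (1 higher, 2 lower), the 9 among the other pathway genes and the 2027 over all genes (1021 higher, 1006 lower) stayed within 1.5 times with pseudocounts of 0.5 and 5, a minimum mean of 50, edgeR and DESeq2, which gave 3, 9 to 11 and 1979 to 2147. When limma ran without the trend, after quantile normalization or on every gene with a read (no filter), each of these counts, in either direction, was 0, with 3300, 3700 and 3893 genes at an unadjusted p under 0.05; the cause was not tested. Each of the 9 genes kept its direction in all of these alternatives, though Gli1 could not be fitted with a minimum mean of 50. Csnk1a1, at -0.01 on the log2 scale, turned to 0.12 with quantile normalization and 0.0022 with DESeq2. With 1 shPHF2 library left out no test was possible, since no residual degree of freedom is left. Values then ranged from 0.94 to 1.80 for Shh, -1.10 to -0.82 for Cdon and -1.27 to -0.86 for Gli2, while Ptch1 (-0.13 to 0.17) and Gli1 (-0.25 to 0.15) changed sign. The control could not be left out. No paired analysis was possible because there was only 1 control library and the labels state no pairs. Depth limits Gli1, with 27 to 52 reads.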

Other observations

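The patterning factor genes Nkx2-2 and Pax7 differed more between the shPHF2 replicates, on the log2 scale, than any of the 9 genes above. They were picked out once their values were known. Nkx2-2, a factor of ventral progenitors that respond to high ligand levels, had 33.9 normalised reads in shControl, 72.5 in replicate 1 and 412 in replicate 2. Its log2 fold change was 2.32 (SE 0.87; limma, adjusted p = 0.11), and the authors' deposited table gave it an adjusted p of 0.0062. Pax7, a dorsal factor gene, had 98.7, 43.4 and 1.21 in the same order (limma, adjusted p = 0.18). Other patterning genes were mixed. Dbx2 (40.9, 53.4 and 150) and Olig1 (37506, 38217 and 52987) rose in the order of Nkx2-2. Pax6 (1392, 1046 and 691) fell in the order of Pax7. The ventral factor gene Nkx6-2 had 32.9, 10.8 and 13.3 normalised reads, and Olig2 had 29320, 24241 and 29091, so neither followed the order of Nkx2-2. Irx3 (65.8, 272 and 184) was lowest in shControl and highest in replicate 1. Among genes too low to test, Nkx2-9 (0, 2.50 and 12.1) rose in the order of Nkx2-2. Msx1 (3.99, 0.834 and 0), also too low to test, fell in the order of Pax7. The readout genes Gli1 and Ptch1 were lowest in replicate 2, at 32.6 and 2390.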
